A study of Mus musculus with 24 samples.

Results

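The comparison made here set the epididymal white adipose tissue (eWAT) of HFD-fed *Lama4* AKO mice against that of chow-fed *Lama4* fl/fl mice, gene by gene, to ask how far the first resembled the second. It used 12 of the 24 libraries in the series, 6 from HFD-fed AKO mice (HFD AKO) and 6 from chow-fed fl/fl mice (chow fl/fl), chosen by their diet and genotype labels and by no measured value. All were adult male mice that carried floxed *Lama4* alleles and were kept on their diet for 20 weeks, either LabDiet 5015 chow or a high-fat diet with 45% of its energy from fat. In AKO mice a Cre driven by the adiponectin promoter deletes exon 3 of *Lama4* in adipocytes, while fl/fl littermates carry the floxed alleles without deletion. The 2 groups thus differ in both diet and genotype. By the study's figure legends, HFD-fed mice were also older than chow-fed mice when feeding ended, so age cannot be told apart from diet. Vessels, stroma and immune cells of AKO fat keep an intact *Lama4* gene, since adiponectin is made by adipocytes. Each library was made from 1 mouse, and no label gives a batch, litter or sequencing day.

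Laminins are heterotrimers of an alpha, a beta and a gamma chain that build the basement membrane, the sheet of matrix that encloses every adipocyte and every capillary. *Lama4* codes for the alpha 4 chain, the main alpha chain around adipocytes. In mice fed a high-fat diet, epididymal fat is the depot best known for hypertrophy of adipocytes followed by macrophage infiltration, adipocyte death and fibrosis, with a loss of adipocyte transcripts and a gain of matrix and immune transcripts. Mast cells also reside in this tissue, and they make proteases stored in their granules, the stem cell factor receptor and the receptor for interleukin 33.

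QuantSeq reads come from the 3′ end of each transcript, and values are given as CPM, counts scaled to a common library size, after scaling the libraries with TMM factors. Fold changes are HFD AKO over chow fl/fl on the log2 scale, from 1 edgeR quasi-likelihood fit to all 24 libraries and 15020 genes. A gene was called if it differed by 1.5-fold or more, had a nominal *p*-value no higher than 0.001 and averaged 2 CPM or more in the group where it was higher, and "rose" and "fell" are used only for called genes. Adjusted *p*-values are those of Benjamini and Hochberg over all 15020 genes. A gene was placed within 1.5-fold if the whole 95% interval of its fold change lay inside 1.5-fold in either direction, since a *p*-value that misses a threshold does not show that the groups are alike. In bulk tissue, fewer cells of a type and less RNA per cell cannot be told apart.

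*Lama4* (ENSMUSG00000019846, chromosome 10 from 38965515 to 39110188, GRCm38), the targeted gene, ranged from 36.4 to 92.5 CPM in HFD AKO (median 44.3) and from 41.2 to 196 CPM in chow fl/fl (median 91.7). The ranges overlapped widely, and replicate 6 held the highest HFD AKO value. The log2 fold change was -0.94 (SE 0.35, adjusted *p*-value = 0.0863), and the gene was not called. Its medians were 113 CPM in chow-fed AKO mice and 78.7 CPM in HFD-fed fl/fl mice. Exon 3 lies far from the 3′ end that QuantSeq reads, so these values do not check the deletion.

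Library totals were lower in HFD AKO, 9156492 to 11640690 counts (median 11405835), than in chow fl/fl, 10195574 to 18764516 (median 15062226). The difference in means had a two-sided exact permutation *p*-value of 0.0130. Chow fl/fl replicates 1 and 3 and HFD AKO replicate 6 stood apart from their groups. On the first principal component of all 24 libraries, which held 45.8% of the variance, chow fl/fl replicate 1 lay at -91.8 and replicate 3 at 46.8, with the other 4 between -22.1 and 6.18. HFD AKO replicate 6 lay at 0.850 and the other 5 between 47.2 and 61.5. The share of counts on the mitochondrial genome was 7.72% ± 1.05 (SD, n = 6) in HFD AKO and 10.9% ± 1.37 (SD, n = 6) in chow fl/fl (exact permutation *p*-value = 0.00433). The rank correlation of each library's deviations with the GC content of the last 300 bases of the transcript was 0.0911 ± 0.0666 in HFD AKO and -0.112 ± 0.173 in chow fl/fl (SD, n = 6, exact permutation *p*-value = 0.0260). The part of depth, mitochondrial share and GC content in the results that follow was not tested.

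Across the whole transcriptome, the 2 groups differed in their mean score on the first component, but their libraries overlapped on it. HFD AKO libraries averaged 46.4 ± 22.8 on the first component and chow fl/fl libraries -15.8 ± 45.2 (SD, n = 6), an exact permutation *p*-value of 0.00866, where the smallest that 6 against 6 can give is 0.00216. The second component, with 10.2% of the variance, had an exact permutation *p*-value of 0.188. The median distance between an HFD AKO and a chow fl/fl library, as the root mean square difference in log2 CPM over all genes, was 0.840 over 36 pairs. HFD AKO libraries lay at a median of 0.611 from each other, whereas chow fl/fl libraries lay at 0.831 from each other. The spread among chow fl/fl mice was thus close to the distance between the groups. Averaged over the mice of a group, 5 of the 6 HFD AKO libraries were nearer to HFD fl/fl than to chow fl/fl, and replicate 6 was the exception. None of the 6 was nearer to chow AKO than to chow fl/fl.

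**Figure D1:**
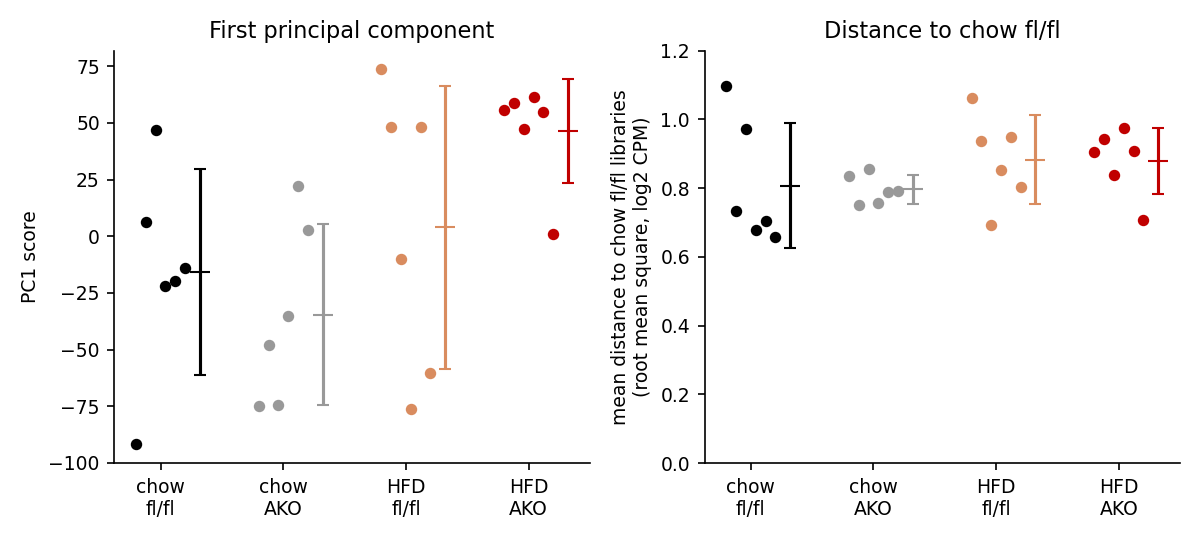
Each point is 1 library, with the score on the first principal component (left) and the mean root mean square distance in log2 CPM to the chow fl/fl libraries (right) for the 4 groups, and bars give mean ± SD (n = 6). Of the HFD AKO libraries, 5 lie between 47.2 and 61.5 on the component and replicate 6 at 0.850, while chow fl/fl libraries spread from -91.8 to 46.8.

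Of the 15020 genes, 315 (2.10%) were called, 75 higher (0.499%) and 240 lower (1.60%) in HFD AKO, and 3912 genes (26.0%) were within 1.5-fold. The other 10755 genes were neither, so for most genes the data showed neither a called difference nor alikeness within 1.5-fold. The median log2 fold change over all genes was -0.00, its median size 0.345 and its median SE 0.243. At an unadjusted *p*-value below 0.05, 1987 genes (13.2%) were higher and 2558 (17.0%) lower. At an adjusted *p*-value of at most 0.05 there were 701 genes (4.67%). Values of the 2 groups did not overlap for 592 genes (3.94%), 337 higher (2.24%) and 255 lower (1.70%). Among the 1725 genes with a mean of at least 100 CPM, 568 (32.9%) were within 1.5-fold and 30 (1.74%) were called.

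These counts moved with the mice used. Leaving out 1 mouse gave between 159 and 748 called genes: 748 without chow fl/fl replicate 3, 186 without replicate 4, 166 without replicate 5 and 189 without replicate 6, and 187, 208, 199, 161, 159 and 550 without HFD AKO replicates 1 to 6. The 701 genes past an adjusted *p*-value of 0.05 became only 1 without HFD AKO replicate 4 or replicate 5 and 2693 without chow fl/fl replicate 3. With 5 libraries set aside, among them chow fl/fl replicate 3, 1487 genes were called, 477 higher and 1010 lower. With limma-voom, the tool of the study's methods, 199 genes were called on all libraries, 86 higher and 113 lower. All 315 genes kept their direction in each of the 24 refits of the data, and the count within 1.5-fold stayed between 3261 and 5263.

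The other 4 comparisons of the design share libraries with this one, and their own counts stand beside it. HFD against chow called 26 genes (0.173%) in fl/fl mice and 619 (4.12%) in AKO mice. AKO against fl/fl called 17 (0.113%) on chow and 26 (0.173%) on HFD. Genes within 1.5-fold numbered 5175, 3554, 5643 and 4789 in the same order, against 3912 here. Whether these counts differ was not tested. They keep all HFD fl/fl libraries, which were split on the first component. Replicates 1, 2 and 5 lay at 73.5, 48.3 and 48.2, and replicates 3, 4 and 6 at -9.88, -76.1 and -60.4. The study, which removed outlier libraries and used limma, reported more genes in each of these 4 comparisons.

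The gene with the lowest *p*-value was *Cspp1* (ENSMUSG00000056763), which codes for a protein of centrosomes and cilia. It ranged from 17.95 to 25.1 CPM in HFD AKO (median 19.9) and from 33.5 to 45.7 CPM in chow fl/fl (median 41.9). Every HFD AKO library lay below every chow fl/fl library. *Cspp1* fell by 0.95 on the log2 scale (SE 0.13, adjusted *p*-value = 0.00178), the lowest adjusted *p*-value of all genes. Its medians were 35.0 CPM in chow AKO and 34.6 CPM in HFD fl/fl. Among the other protein-coding genes that fell with the lowest *p*-values, *Sub1*, a transcriptional coactivator, had medians of 194 CPM in HFD AKO and 569 CPM in chow fl/fl (log2 fold change -1.34, adjusted *p*-value = 0.0173). *Magoh*, a core protein of the exon junction complex, had medians of 33.7 and 77.7 CPM (-1.05, adjusted *p*-value = 0.0166). *Lrrc9* fell by 2.42 on the log2 scale (adjusted *p*-value = 0.0158), but its chow fl/fl mean of 2.0006 CPM sat at the cut on level, and its call ended under 14 of 24 alternatives, where the fold change stayed between -2.72 and -2.22.

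The 10 genes that rose with the lowest *p*-values included *Il1rl1*, *Kit* and *Slc6a4* of the mast cell list and *Gm28586*, which are described further on, and 6 others. *Thbs4*, thrombospondin 4, a matrix glycoprotein of injured and mechanically loaded tissue, ranged from 1.88 to 10.6 CPM in HFD AKO (median 4.34) and from 0.152 to 1.09 CPM in chow fl/fl (median 0.544). The groups did not overlap, and the log2 fold change was 3.21 (SE 0.58, adjusted *p*-value = 0.0158). *Kremen1*, a receptor for Dickkopf inhibitors of Wnt signaling, had medians of 21.6 and 10.5 CPM, and its ranges overlapped slightly (log2 fold change 0.86, adjusted *p*-value = 0.0158). *Ptgfrn*, a transmembrane immunoglobulin protein, had medians of 65.5 and 40.9 CPM (0.72, adjusted *p*-value = 0.0173). *Gxylt2*, which adds xylose to glucose on Notch, had medians of 21.1 and 12.1 CPM (0.78, adjusted *p*-value = 0.0173). *Gas2l1*, a linker of actin and microtubules, had the lowest *p*-value among genes that rose, with 58.3 to 76.7 CPM in HFD AKO and 36.7 to 51.7 CPM in chow fl/fl. Its log2 fold change of 0.61 (adjusted *p*-value = 0.0158) sat at the 1.5-fold criterion, which it missed without chow fl/fl replicate 1 (0.58), chow fl/fl replicate 5 (0.56) or HFD AKO replicate 5 (0.58). *Efcc1* also rose, from a median of 2.82 to 8.95 CPM (1.45, adjusted *p*-value = 0.0173).

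The widest separation in a cell type list was in mast cell genes. All 12 lay above 0, the median log2 fold change was 2.25 against -0.00 over all genes, and 4 were called higher, against 0.499% of all genes. The values of the 2 groups did not overlap for 10 of the 12, against 2.24% of genes in this direction, and *Cpa3* and *Hdc* were the exceptions. The called genes code for receptors, a transporter and a transcription factor. *Il1rl1*, the receptor for interleukin 33, ranged from 25.7 to 51.2 CPM in HFD AKO (median 46.1) and from 10.3 to 21.1 CPM in chow fl/fl (median 14.3). It rose by 1.52 on the log2 scale (SE 0.27, adjusted *p*-value = 0.0158). *Kit*, the stem cell factor receptor on which mast cells depend, ranged from 11.5 to 20.4 CPM (median 12.7) and from 3.01 to 5.99 CPM (median 5.46), a log2 fold change of 1.48 (SE 0.27, adjusted *p*-value = 0.0158). *Slc6a4*, the serotonin transporter, ranged from 3.67 to 13.1 CPM (median 9.05) and from 1.32 to 1.93 CPM (median 1.60), a log2 fold change of 2.45 (SE 0.45, adjusted *p*-value = 0.0158). *Gata2*, a transcription factor of the mast cell lineage, ranged from 8.86 to 19.5 CPM (median 15.9) and from 4.09 to 8.66 CPM (median 6.00), a log2 fold change of 1.28 (SE 0.25, adjusted *p*-value = 0.0173). In each of the 4, every HFD AKO library lay above every chow fl/fl library.

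The 250 bases upstream of the start of these 4 genes are shown because the genes rose together and *Gata2* was among them. They are from RefSeq on GRCm38.p6, forward strand, at chr1:40429320-40429569 for *Il1rl1* (ENSMUSG00000026069), chr5:75574737-75574986 for *Kit* (ENSMUSG00000005672), chr11:76998347-76998596 for *Slc6a4* (ENSMUSG00000020838) and chr6:88193641-88193890 for *Gata2* (ENSMUSG00000015053). Capitals mark AGATAA or its reverse complement TTATCT, 1 spelling of the site known for GATA factors. Other spellings of the site were neither marked nor counted. For *Il1rl1*, *Kit* and *Gata2*, 1 of 2 promoters is shown.
*Il1rl1*: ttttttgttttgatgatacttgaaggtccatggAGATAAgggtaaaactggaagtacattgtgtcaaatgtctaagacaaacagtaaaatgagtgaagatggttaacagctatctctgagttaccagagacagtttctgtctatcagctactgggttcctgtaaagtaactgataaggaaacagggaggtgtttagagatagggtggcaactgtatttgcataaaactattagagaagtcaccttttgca
*Kit*: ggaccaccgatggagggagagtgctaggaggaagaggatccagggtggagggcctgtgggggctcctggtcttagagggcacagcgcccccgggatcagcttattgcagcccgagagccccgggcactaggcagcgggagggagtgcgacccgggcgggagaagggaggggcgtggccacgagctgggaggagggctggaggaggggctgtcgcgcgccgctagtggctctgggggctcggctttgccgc
*Slc6a4*: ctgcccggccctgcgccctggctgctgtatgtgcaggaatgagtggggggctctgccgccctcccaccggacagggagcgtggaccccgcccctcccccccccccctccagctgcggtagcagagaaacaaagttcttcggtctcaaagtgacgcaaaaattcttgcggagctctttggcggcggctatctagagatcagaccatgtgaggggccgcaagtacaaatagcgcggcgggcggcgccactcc
*Gata2*: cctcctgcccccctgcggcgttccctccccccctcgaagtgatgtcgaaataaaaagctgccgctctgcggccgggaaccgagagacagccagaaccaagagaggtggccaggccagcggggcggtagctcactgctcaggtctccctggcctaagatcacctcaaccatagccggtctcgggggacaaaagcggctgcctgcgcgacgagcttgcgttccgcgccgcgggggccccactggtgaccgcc
The *Il1rl1* sequence held 1 match and had a GC content of 37.6%. The other 3 held none and had GC contents of 70.8% (*Kit*), 64.8% (*Slc6a4*) and 67.2% (*Gata2*). The motif, searched on both strands, was in 9.99% of 32851 promoters of this length. Of the 10 mast cell genes with a promoter in the table, 4 held it in at least 1 promoter, against 11.4% of 27025 genes. Whether these shares differ, or whether GATA2 acts on these genes, was not tested.

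The granule proteases and the other mast cell genes were not called, at log2 fold changes of 1.37 to 2.81. *Tpsb2*, a tryptase, ranged from 221 to 816 CPM in HFD AKO (median 613) and from 23.4 to 183 CPM in chow fl/fl (median 68.5), a log2 fold change of 2.81 (adjusted *p*-value = 0.0491) with no overlap. *Cma1*, the chymase, ranged from 133 to 394 CPM (median 314) and from 12.4 to 96.5 CPM (median 51.4), a log2 fold change of 2.48 (adjusted *p*-value = 0.0600) with no overlap. *Cpa3*, a carboxypeptidase of the granule, ranged from 166 to 477 CPM (median 430) and from 13.7 to 169 CPM (median 81.0), a log2 fold change of 2.15 (adjusted *p*-value = 0.0844). *Fcer1a*, the alpha chain of the IgE receptor, had medians of 18.6 and 3.50 CPM, and *Hdc*, which makes histamine, 13.6 and 3.93 CPM. All 12 genes had an unadjusted *p*-value below 0.05, against 13.2% of genes in this direction. Summed over the list, HFD AKO libraries held 656 to 2093 CPM (median 1685) and chow fl/fl libraries 85.1 to 552 CPM (median 271), with no overlap. Chow AKO held 57.4 to 470 CPM (median 77.3) and HFD fl/fl 79.0 to 2421 CPM (median 887), the widest range of the 4 groups. The median log2 fold change of the list was 1.5001 for HFD against chow in fl/fl mice, 3.30 for the same in AKO mice, -0.67 for AKO against fl/fl on chow and 0.65 for it on HFD. The same 4 genes were called without any single mouse, and 12 were called in a fit of only the 12 libraries or without 5 libraries.

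**Figure D2:**
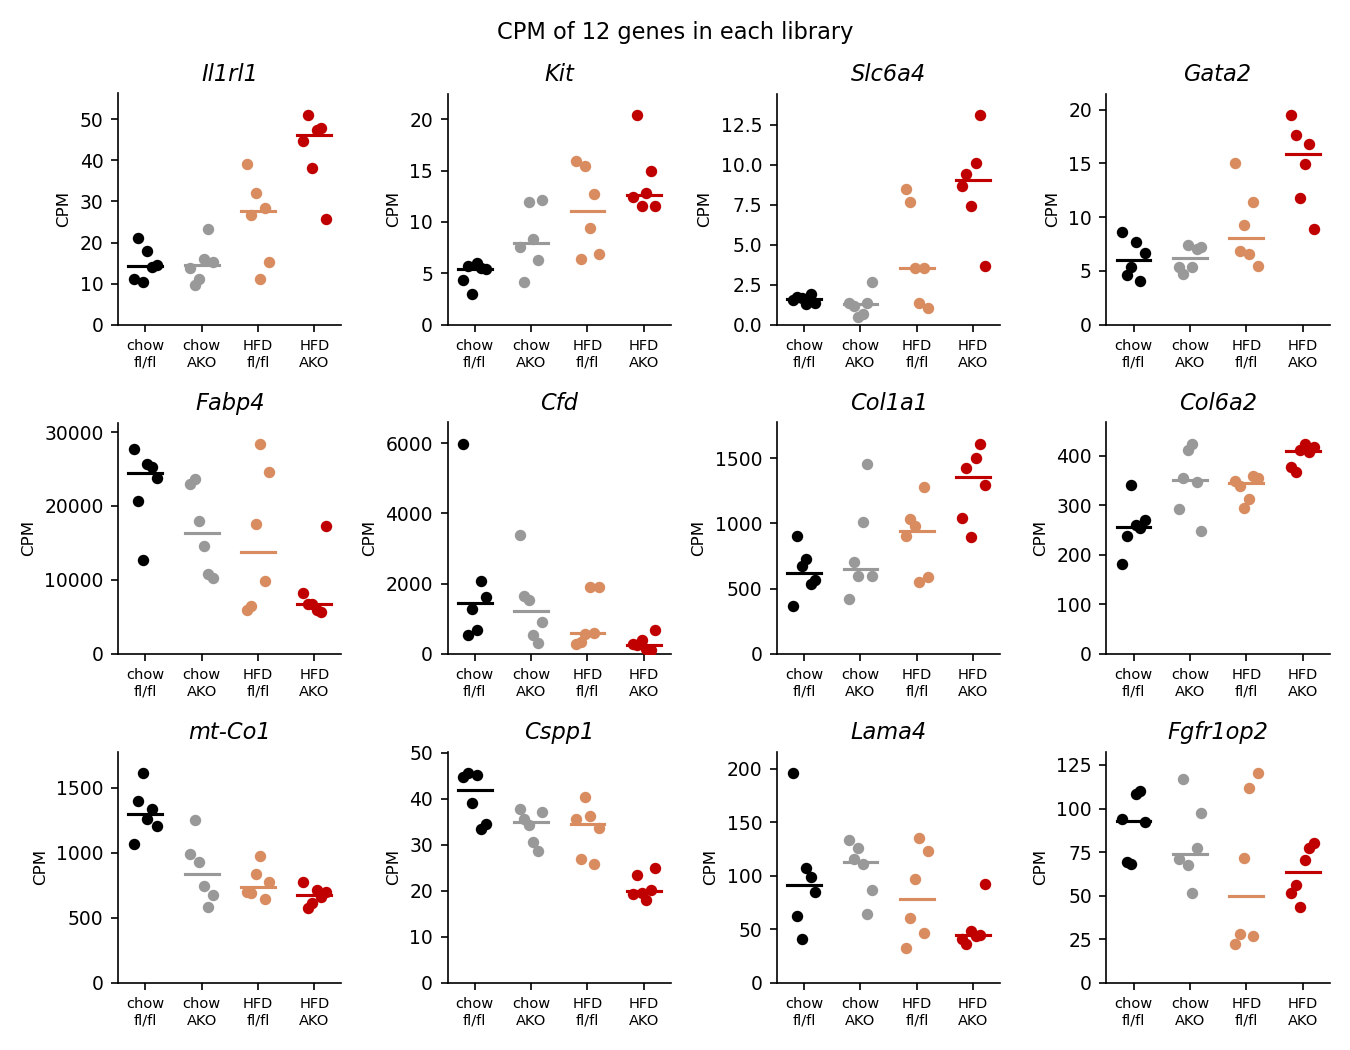
CPM of 12 genes in each library of the 4 groups, 1 panel per gene, with a line at the group median. *Il1rl1*, *Kit*, *Slc6a4* and *Gata2* are higher in every HFD AKO library than in any chow fl/fl library, whereas *Fabp4*, *Cfd* and *Lama4* overlap.

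Adipocyte genes were lower in HFD AKO. All 16 genes of adipocyte identity lay below 0, with a median log2 fold change of -1.06, 11 had an unadjusted *p*-value below 0.05 against 17.0% of genes in this direction, and 2 were called, against 1.60%. *Fabp4*, the fatty acid binding protein of adipocytes, ranged from 5707 to 17255 CPM in HFD AKO (median 6694) and from 12618 to 27655 CPM in chow fl/fl (median 24512). Only HFD AKO replicate 6 and chow fl/fl replicate 3, each the outermost of its group, made the ranges overlap. *Fabp4* fell by 1.43 on the log2 scale (SE 0.38, adjusted *p*-value = 0.0380). *Cfd*, adipsin, a serum protease secreted by adipocytes that activates complement, ranged from 108 to 663 CPM (median 261) and from 537 to 5988 CPM (median 1442), and fell by 2.74 (SE 0.67, adjusted *p*-value = 0.0329). Without chow fl/fl replicate 1 its log2 fold change was -2.02, and without HFD AKO replicate 1, 2, 4 or 5 it was -2.71 to -2.57, none of which was called. No gene of the list was without overlap.

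Hormones and enzymes of adipocytes that were not called had the same sign. *Adipoq*, adiponectin, ranged from 764 to 1775 CPM in HFD AKO (median 1026) and from 1280 to 7902 CPM in chow fl/fl (median 2422), a log2 fold change of -1.48 (adjusted *p*-value = 0.0725). *Lep*, leptin, had medians of 486 and 1406 CPM (-0.94, adjusted *p*-value = 0.201), and *Retn*, resistin, 161 and 444 CPM (-2.16, adjusted *p*-value = 0.0637). *Pparg*, the master regulator of adipocyte differentiation, had medians of 89.5 and 116 CPM (-0.30, adjusted *p*-value = 0.708). The summed CPM of the list was 11141 to 33038 in HFD AKO (median 13833) and 27573 to 87788 in chow fl/fl (median 43352), where the highest sum belonged to replicate 1. Without chow fl/fl replicate 1 the median log2 fold change of the list was -0.52 and none of its genes was called. Without HFD AKO replicate 1, 2, 4 or 5 none was called either, at medians of -1.04 to -0.97, and *Fabp4* was called in 11 of 24 alternatives. The list's median was -0.10 for HFD against chow in fl/fl mice, -1.22 for it in AKO mice, 0.09 for AKO against fl/fl on chow and -0.93 on HFD. HFD fl/fl libraries were split. Their summed CPM was 11674, 14882 and 19229 in replicates 1, 2 and 5 and 32052, 78019 and 62435 in replicates 3, 4 and 6.

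The lists of lipid handling had medians of the same sign. Fatty acid uptake and triglyceride synthesis had a median log2 fold change of -0.54 with 1 of 16 called (*Fabp4*), lipolysis and lipid droplet proteins -0.79 with 0 of 15, and de novo lipogenesis -0.65 with 0 of 14. Over all genes 1.60% were called lower. *Scd1*, the stearoyl-CoA desaturase, had medians of 1451 and 2080 CPM, and its log2 fold change of -1.12 (adjusted *p*-value = 0.180) was -0.23 without chow fl/fl replicate 1, which held 12066 CPM. *Lpl*, the lipase that releases fatty acids at capillaries, was within 1.5-fold, with 9113 to 11399 CPM in HFD AKO and 9078 to 11985 CPM in chow fl/fl (log2 fold change -0.03, 95% interval inside 1.5-fold). *Plin2*, a coat protein of small lipid droplets, went the other way, with medians of 1745 and 1007 CPM (0.68, adjusted *p*-value = 0.202). Of 18 adipokine and secreted factor genes 2 were called, against 1.60% of all genes called lower, *Cfd* and *Hp*, haptoglobin, at a list median of -0.96. *Hp* had medians of 1455 and 2823 CPM (-0.97, adjusted *p*-value = 0.0393), a call held in 8 of 24 alternatives. In insulin signaling and glucose uptake 1 of 17 genes fell, against 1.60% of all genes. It was *Pik3r1*, the regulatory subunit of phosphatidylinositol 3-kinase, with medians of 43.0 and 148 CPM (-1.40, adjusted *p*-value = 0.0335). That list had a median of -0.44, which was -0.08 without chow fl/fl replicate 1, and *Pik3r1*, then at -1.32, kept its call in 16 of 24 alternatives. Sterol synthesis had a median of -0.22 with 0 of 21 called, where *Hmgcs1*, an early enzyme of the pathway, had -0.96 (adjusted *p*-value = 0.0797). Of 11 thermogenic genes 1 was called, against 1.60% of all genes. It was *Cox8b*, a cytochrome oxidase subunit of brown fat, with medians of 12.7 and 24.2 CPM (-1.23, adjusted *p*-value = 0.0386), a call held in 12 of 24 alternatives. *Ucp1* was at a median of 0.591 CPM in HFD AKO and 1.53 CPM in chow fl/fl.

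Nuclear genes of mitochondrial metabolism lay mostly below 0, by less than 1.5-fold at the median. Beta-oxidation had a median of -0.42 with 0 of 18 called, and *Acadl*, the long-chain acyl-CoA dehydrogenase, was within 1.5-fold with medians of 315 and 316 CPM. Branched-chain amino acid catabolism had a median of -0.35 with 0 of 23 called. The tricarboxylic acid cycle had a median of -0.16 with 0 of 21 called and 13 of 21 genes within 1.5-fold, against 26.0% of all genes. Of 37 nuclear genes of respiratory complex I, 36 lay below 0 at a median of -0.35, 19 had an unadjusted *p*-value below 0.05 against 17.0% of genes in this direction, and none was called. Their summed CPM was 4949 to 5891 in HFD AKO and 6297 to 8124 in chow fl/fl, with no overlap. Of 39 nuclear genes of complexes II to V, 2 were called lower, against 1.60% of all genes, at a median of -0.28. The groups did not overlap for 9 of these 39 in this direction, against 1.70% of all genes. Their sums did not overlap either, at 9506 to 11342 CPM in HFD AKO and 11954 to 15943 CPM in chow fl/fl. In chow AKO the sums were 4408 to 7463 CPM for complex I and 8851 to 13720 CPM for complexes II to V. *Cox6c*, a subunit of cytochrome c oxidase, ranged from 427 to 591 CPM in HFD AKO and from 653 to 1128 CPM in chow fl/fl, with no overlap (-0.75, adjusted *p*-value = 0.0322). Its call ended without chow fl/fl replicate 2 (-0.71) or 3 (-0.66) and without HFD AKO replicate 3 (-0.73), 4 (-0.74) or 5 (-0.71). *Uqcr11*, a subunit of complex III, ranged from 78.0 to 137 CPM and from 144 to 199 CPM (-0.74, adjusted *p*-value = 0.0393), a call held in 11 of 24 alternatives. The 40 cytosolic ribosomal protein genes had a median of -0.04 with none called, and 17 were within 1.5-fold.

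Genes of the mitochondrial genome were lower. Of the 24 tested, 9 fell (37.5%, against 1.60% of all genes) and 23 lay below 0, at a median of -1.29. *mt-Co1*, the catalytic subunit of cytochrome c oxidase, ranged from 578 to 777 CPM in HFD AKO (median 678) and from 1067 to 1616 CPM in chow fl/fl (median 1298), without overlap. It fell by 0.97 on the log2 scale (SE 0.17, adjusted *p*-value = 0.0158). *mt-Nd6*, the complex I subunit on the other strand of the genome, had medians of 2.01 and 10.7 CPM (-2.20, adjusted *p*-value = 0.0219). The abundant mRNAs varied. *mt-Nd4*, *mt-Nd1* and *mt-Cytb* had 0.07, -0.18 and -0.28, whereas *mt-Nd2* had means of 6668 CPM in HFD AKO and 15789 CPM in chow fl/fl (-1.24, adjusted *p*-value = 0.0399). None of these was called. The 8 mRNAs tested had a median of -0.41 with 2 called. All 14 tRNA genes lay below 0 at a median of -1.45 with 5 called, among them *mt-Ti* for isoleucine (medians of 8.58 and 19.8 CPM, -1.15, adjusted *p*-value = 0.0161) and *mt-Tt* for threonine (1.98 and 6.06 CPM, -1.61, adjusted *p*-value = 0.0173). Both rRNA genes were called. *mt-Rnr2*, the large rRNA, ranged from 1684 to 6761 CPM in HFD AKO (median 1868) and from 2729 to 33331 CPM in chow fl/fl (median 25168), and the groups overlapped.

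Several small nucleolar RNA genes fell as well. Of 33 snoRNA and scaRNA genes 5 were called, all lower, against 1.60% of all genes, and 27 lay below 0 at a median of -0.84. *Snord13*, which guides acetylation of the 18S rRNA, ranged from 17.98 to 65.4 CPM in HFD AKO (median 41.1) and from 93.0 to 721 CPM in chow fl/fl (median 193), without overlap, and fell by 2.57 (SE 0.42, adjusted *p*-value = 0.0158). *Snord118*, the U8 RNA needed to process the 28S and 5.8S rRNA, had medians of 2.05 and 9.29 CPM (-2.60, adjusted *p*-value = 0.0158). *Snord89* had the largest log2 fold change among genes that fell, -5.27 (SE 1.06, adjusted *p*-value = 0.0216), with 0.315 to 11.5 CPM in HFD AKO (median 0.734) and 1.73 to 176 CPM in chow fl/fl (median 92.8). The highest HFD AKO value was that of replicate 6 and the lowest chow fl/fl value that of replicate 3, each far from its group. Mature snoRNAs and tRNAs carry no long poly(A) tail of the kind that primes a QuantSeq library, and reads of a snoRNA and of its host gene were not separated here. The share of counts on small RNA genes was 0.0132% ± 0.00263 in HFD AKO and 0.0476% ± 0.0322 in chow fl/fl (SD, n = 6). Its part in these results was not tested.

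Part of the fibrillar matrix genes rose. Of 19 fibrillar collagen, collagen VI and crosslinking genes, 16 lay above 0 at a median log2 fold change of 0.51. Of the 19, 10 were higher at an unadjusted *p*-value below 0.05, against 13.2% of all genes, and 5 were called higher, against 0.499%. *Col6a2*, a chain of collagen VI that surrounds adipocytes, ranged from 366 to 424 CPM in HFD AKO (median 410) and from 181 to 341 CPM in chow fl/fl (median 256), without overlap. It rose by 0.64 on the log2 scale (SE 0.14, adjusted *p*-value = 0.0283). *Loxl2*, a lysyl oxidase that crosslinks collagen, ranged from 54.9 to 94.6 CPM (median 73.7) and from 31.2 to 52.6 CPM (median 44.5), without overlap (0.83, adjusted *p*-value = 0.0304). *Fn1*, fibronectin, ranged from 547 to 853 CPM and from 256 to 541 CPM, without overlap (0.95, adjusted *p*-value = 0.0335). *Col5a1*, which nucleates collagen I fibrils, had medians of 256 and 144 CPM (0.69, adjusted *p*-value = 0.0292), and chow fl/fl replicate 3 lay above the other chow fl/fl libraries. *Col1a1*, the alpha 1 chain of collagen I, ranged from 896 to 1611 CPM (median 1358) and from 363 to 900 CPM (median 621), with a small overlap (1.04, adjusted *p*-value = 0.0374), a call held in 13 of 24 alternatives. Its partner chain *Col1a2* had medians of 970 and 1272 CPM (-0.18, adjusted *p*-value = 0.681), and *Col3a1* 2158 and 1547 CPM (0.60, adjusted *p*-value = 0.135). The list held 2 calls without chow fl/fl replicate 1, at a median of 0.42, and 3 without chow fl/fl replicate 4, 5 or 6 or HFD AKO replicate 2, 4 or 5, at medians of 0.41 to 0.53.

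Basement membrane genes, the family of the targeted gene, were not called. Of 10 laminin chain genes tested, 5 lay above and 5 below 0 at a median of -0.02. *Lama2*, the alpha 2 chain, ranged from 43.0 to 55.3 CPM in HFD AKO (median 52.2) and from 29.5 to 42.7 CPM in chow fl/fl (median 33.1), without overlap, but its log2 fold change of 0.55 (adjusted *p*-value = 0.0534) was under 1.5-fold. *Lamb1*, the beta 1 chain, was within 1.5-fold with medians of 264 and 250 CPM. The 16 other basement membrane genes had a median of 0.05 and ranged from -1.20 to 0.85. Of them 4 were higher and 2 lower at an unadjusted *p*-value below 0.05, against 13.2% and 17.0% of all genes. *Sparc*, a collagen-binding protein of the matrix, had medians of 3822 and 4818 CPM (-0.21, adjusted *p*-value = 0.488). Matrix metalloproteinases and their inhibitors had a median of 0.41 with 0 of 17 called. *Mmp12*, the macrophage elastase, ranged from 1083 to 4993 CPM in HFD AKO and from 57.1 to 2396 CPM in chow fl/fl, where replicate 1 was lowest (1.11, adjusted *p*-value = 0.281).

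Of 14 stromal progenitor genes 2 rose, against 0.499% of all genes, and 7 were higher at an unadjusted *p*-value below 0.05, against 13.2%, at a list median of 0.35. The called genes were *Col1a1* and *Fbn1*, fibrillin 1. *Fbn1* had medians of 174 and 116 CPM (0.62, adjusted *p*-value = 0.0333), and it was not called without chow fl/fl replicate 2 (0.62), 5 (0.61) or 6 (0.54) or HFD AKO replicate 4 (0.57), 5 (0.57) or 6 (0.61). *Mbp*, myelin basic protein, was the 1 called of 7 nerve and Schwann cell genes, against 0.499% of all genes called higher. It had medians of 76.8 and 44.4 CPM (0.69, adjusted *p*-value = 0.0371), at a list median of 0.58, and its call held in 13 of 24 alternatives. Endothelial genes had a median of -0.48 with 0 of 18 called, and *Pecam1* had medians of 133 and 166 CPM (-0.35, adjusted *p*-value = 0.313). Smooth muscle and pericyte genes had a median of -0.27 with 0 of 10 called, mesothelial genes -0.89 with 0 of 11 and blood genes -0.30 with 0 of 7. *Rgs5*, a pericyte marker, had 86.6 and 160 CPM (-0.79, adjusted *p*-value = 0.137), *Gpm6a*, a marker of mesothelium, 15.7 and 16.6 CPM (-0.86, adjusted *p*-value = 0.305), and *Hbb-bs*, a beta globin, 1234 and 1708 CPM (-0.27, adjusted *p*-value = 0.637). Of 14 epididymis and testis genes listed, none passed the filter on low values.

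No gene of the macrophage and lymphocyte lists was called, and called genes outside the lists were not sorted by cell type. The 18 genes of lipid-associated macrophages, the TREM2-dependent cells that ring dying adipocytes, had a median of 0.66. Of them 3 were higher at an unadjusted *p*-value below 0.05, against 13.2% of all genes. *Gpnmb*, one of their surface proteins, ranged from 2079 to 6920 CPM in HFD AKO (median 4170) and from 133 to 2818 CPM in chow fl/fl (median 1422), a log2 fold change of 1.48 (adjusted *p*-value = 0.163). The lowest value was that of chow fl/fl replicate 1. *Trem2* itself had medians of 432 and 281 CPM (0.61, adjusted *p*-value = 0.4926). The 18 pan-macrophage and monocyte genes had a median of 0.32, and *Lyz2*, lysozyme, had medians of 5363 and 4136 CPM (0.49, adjusted *p*-value = 0.471). T and NK cell genes had a median of 0.47 (0 of 16 called, *Il7r* -0.11), B and plasma cell genes 0.94 (0 of 12, *Igkc* 0.80) and dendritic cell and MHC II genes 0.09 (0 of 13, *H2-Aa* 0.25). Cytokines and chemokines had a median of -0.10 with 0 of 18 called, *Ccl9* had 0.23, and *Tnf* had medians of 8.09 and 3.87 CPM (0.79, adjusted *p*-value = 0.288).

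Of 22 interferon response genes 20 lay below 0 at a median log2 fold change of -0.27, 5 had an unadjusted *p*-value below 0.05 against 17.0% of genes in this direction, and 1 was called, against 1.60%. Their summed CPM was 559 to 1488 in HFD AKO (median 978) and 1596 to 2484 in chow fl/fl (median 1759), with no overlap. The groups also did not overlap for 2 of the 22 in this direction, against 1.70% of all genes. They were *Ifit2*, which binds viral RNA (-0.89, adjusted *p*-value = 0.0828), and *Ifi27l2a*, an interferon-inducible gene (-1.22, adjusted *p*-value = 0.0464). Neither was called.

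Single genes fell in several further lists, to be read beside the 1.60% of all genes called lower. *C7*, a component of the membrane attack complex, fell from a chow fl/fl median of 4.37 to 0.575 CPM in HFD AKO (-2.81, adjusted *p*-value = 0.0293) in a complement list with a median of 0.18, whose other call of 17 was *Cfd*. *Pdia4*, a disulfide isomerase of the endoplasmic reticulum, had medians of 10.1 and 38.0 CPM (-1.50, adjusted *p*-value = 0.0313), the 1 call of 18 unfolded protein response genes at a median of 0.01. In *Pdia4* chow fl/fl replicate 3 lay far below the other chow fl/fl libraries and under every HFD AKO library. *Pex3*, which inserts peroxisomal membrane proteins, had medians of 15.2 and 44.1 CPM (-1.38, adjusted *p*-value = 0.0334), the 1 call of 21 peroxisome genes at a median of -0.18, and its call ended without chow fl/fl replicate 1 (-1.12) or 5 (-1.35) or any of HFD AKO replicates 1 to 5 (-1.36 to -1.34). *Pdia4* was not called without HFD AKO replicate 3 or 4 (both -1.43). No gene was called among 17 circadian clock genes (median -0.05, *Tef* 0.03), 17 immediate early genes (0.17, *Atf3* 0.64), 20 hypoxia and glycolysis genes (0.13, *Aldoa* 0.21), 20 antioxidant genes (-0.01, *Prdx1* 0.38) or 21 proliferation genes (0.30, *Pcna* 0.34).

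**Figure D3:**
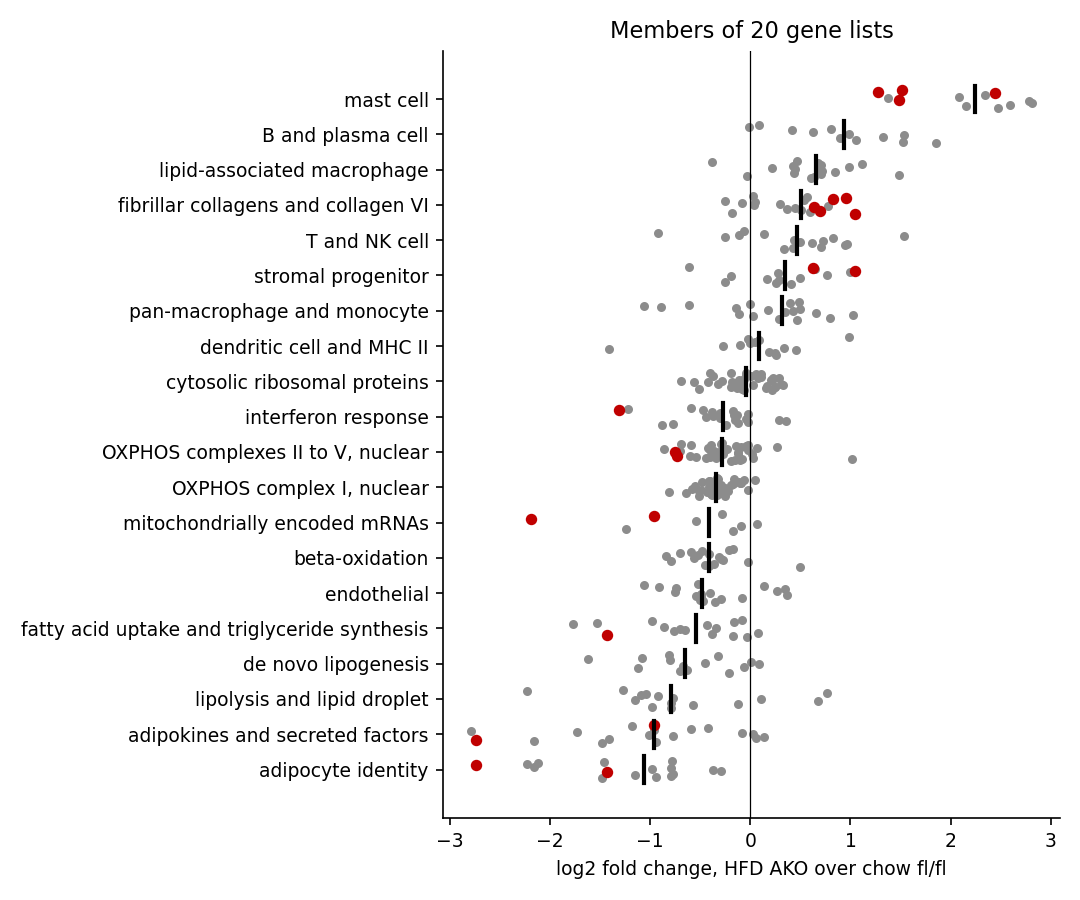
Log2 fold change of HFD AKO over chow fl/fl for each member of 20 gene lists, 1 point per gene, with called genes in red and a bar at the list's median. Mast cell genes all lie above 0 (median 2.25) and adipocyte identity genes all lie below 0 (median -1.06), while cytosolic ribosomal protein genes centre near 0 (median -0.04).

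The study singled out genes that set HFD fl/fl eWAT apart from both HFD AKO and chow fl/fl eWAT, and it named 9 of a longer list, which is not analysed here in full. Those 9 were chosen by the study on these samples for their difference from HFD fl/fl, so they are not independent evidence on how alike the other 2 groups are. It holds *Atf2*, a stress-responsive transcription factor, *Gtf2h1*, a subunit of the general factor TFIIH, *Larp4*, which binds poly(A) RNA, *Mrpl9* of the mitochondrial ribosome, *Pex2*, a peroxisomal ubiquitin ligase, *Srpr*, a receptor for the signal recognition particle, and *Btbd10*, *Fgfr1op2* and *Grcc10*. None was called, and 1 of the 9, *Pex2*, was within 1.5-fold, against 26.0% of all genes. *Pex2* ranged from 10.8 to 15.2 CPM in HFD AKO and from 11.4 to 17.8 CPM in chow fl/fl (log2 fold change -0.09, SE 0.20). The intervals of the other 8 crossed the 1.5-fold bound. Of the 9, 8 lay below 0 at a median of -0.30, with *Grcc10* at 0.13. *Atf2* had 22.2 to 33.3 CPM and 23.6 to 51.7 CPM, a log2 fold change of -0.50 (95% interval -0.998 to -0.00622, adjusted *p*-value = 0.161). *Fgfr1op2* had 43.3 to 80.2 CPM (median 63.4) and 68.1 to 110 CPM (median 92.9), a log2 fold change of -0.51 (adjusted *p*-value = 0.3003). In *Larp4*, *Gtf2h1* and *Srpr* chow fl/fl replicate 3 lay below the other chow fl/fl libraries. Without 5 libraries, among them that one, *Atf2* had a log2 fold change of -0.61 and was called. The list's median was -0.27 for HFD against chow in fl/fl mice, -0.35 for it in AKO mice, 0.02 for AKO against fl/fl on chow and -0.03 on HFD. The study chose these genes after removing outlier libraries, whereas these medians use all 24. In HFD fl/fl, *Fgfr1op2* had 22.2, 28.2 and 26.7 CPM in replicates 1, 2 and 5. It had 71.6, 112 and 121 CPM in replicates 3, 4 and 6.

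Among genes with a mean of at least 100 CPM, 5 were picked for having the narrowest intervals inside 1.5-fold. Their narrow intervals thus follow from the choice. *Ppp2ca*, the catalytic subunit of protein phosphatase 2A, ranged from 186 to 211 CPM in HFD AKO and from 186 to 216 CPM in chow fl/fl, a log2 fold change of 0.02 (95% interval -0.17 to 0.21). *Ssr1*, a subunit of the translocon-associated protein complex, had medians of 133 and 132 CPM, and *Mtmr6*, a phosphoinositide phosphatase, 105 and 95.4 CPM. *Mbtps1*, the site-1 protease that activates SREBPs, had medians of 114 and 93.3 CPM (0.22). *Sec63*, a cochaperone of the translocon, ranged from 89.2 to 110 CPM and from 112 to 134 CPM. The *Sec63* groups did not overlap although the whole interval lay within 1.5-fold (-0.23), so separation of the libraries and a difference of 1.5-fold are not the same measure.

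**Figure D4:**
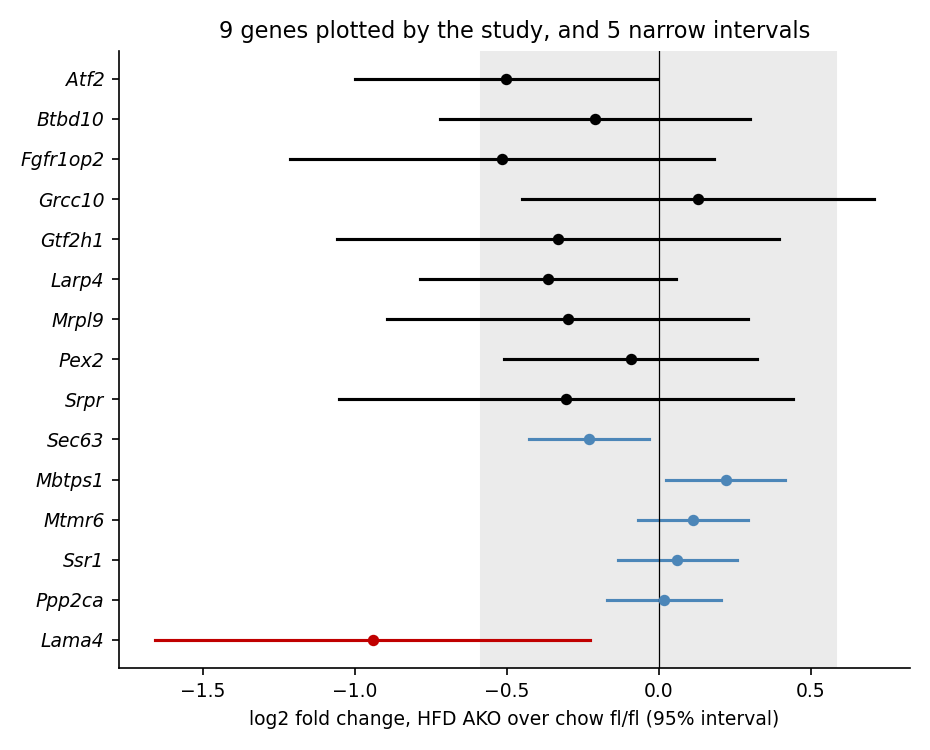
Log2 fold change of HFD AKO over chow fl/fl with its 95% interval for the 9 genes the study plotted (black), the 5 genes with the narrowest intervals at 100 CPM or more (blue) and *Lama4* (red), with the range within 1.5-fold shaded. Of the 9, the interval of *Pex2* lies inside the shaded range, and that of *Lama4* lies below 0 and reaches past it.

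The list of chromosome 9 genes that track the genotype label was taken from earlier work on these data, so their direction here is a description. *Gm28586* (ENSMUSG00000100176, chromosome 9 from 100530616 to 100531071), annotated as a sense intronic RNA, had no count in any chow fl/fl library and 17 to 50 counts in each HFD AKO library, a mean of 2.84 CPM. Against a floor of 3 counts in each chow fl/fl library, it was at least 13.0-fold higher, and it was the called gene with the largest fitted difference. It was counted in all 6 chow AKO libraries (0.460 to 1.54 CPM) and in 1 of the 6 HFD fl/fl libraries, replicate 2, at 2.03 CPM, while the other 5 were at 0. Reads of a sense intronic RNA and of unspliced RNA of its host gene cannot be told apart. *Cep162*, a protein of the centriole, fell by 0.92 on the log2 scale (medians of 10.9 and 24.4 CPM, adjusted *p*-value = 0.0312), a call that ended without chow fl/fl replicate 4 (-0.84). *Zfp949*, a zinc finger gene, had medians of 7.07 and 4.86 CPM (0.86, adjusted *p*-value = 0.0478) and *Mthfsl* 24.3 and 19.8 CPM (0.21, adjusted *p*-value = 0.491), and neither was called. The median of these 4 genes was 0.53.

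Called genes also differed from the rest in median GC content and transcript length, which the rule did not use. The median GC content of the last 300 bases of the transcript was 41.7% for the 75 genes that rose, 38.3% for the 240 that fell and 42.7% for genes not called. With offsets for this GC content, 311 genes were called, of which 269 were among the 315. Median transcript length was 4551, 3418 and 3179 bases in the same order. Of the 315 called genes, 119 (37.8%) had no overlap between the groups, against 3.94% of all genes. The rule favours genes without overlap, since it uses the same values, so this share is not independent of it.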

How the data were processed

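RNA of flash-frozen eWAT was extracted with a Qiagen lipid tissue kit and made into Lexogen QuantSeq 3′ libraries, 1 per mouse, for 24 male mice in 4 groups of 6. The authors ran Lexogen's QuantSeq pipeline on the Bluebee platform to map and count reads and deposited raw counts per gene, without normalization, for 16730 genes, of which the lowest total over the libraries is 72. The submitters' processing notes name R 4.0.3, DESeq2 1.30 and GRCm38. A second deposited table with normalized values was not used for any value. Libraries held 5579590 to 18764516 counts, and a count of 0 allows up to 3 counts, which covers counting error only. No 2 libraries of a group agreed within sampling noise.

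Counts were analysed with edgeR 4.0.16 in R 4.3.3. Genes at 1 CPM or more in 3 or more libraries were kept, scaled with TMM factors and fitted with 1 coefficient per group, and log2 CPM used a prior count of 2. The call criteria are those of the study's methods, except that edgeR, which fits raw counts, replaced limma-voom. Single values per library were compared by two-sided exact permutation tests. *p*-values measure the spread between these mice. Symbols were found for 16683 gene IDs. The groups, the 44 gene lists (735 genes) and the alternatives were chosen with earlier results of these data known. Genes named are the 10 with the lowest *p*-value in each direction, up to 4 called members of each list or, where none is called, its most abundant member, *Lama4*, the 9 genes the study plotted, the 5 narrowest intervals inside 1.5-fold and the largest change in each direction. List members named beyond that (*Tpsb2*, *Cma1*, *Cpa3*, *Fcer1a*, *Hdc*, *Adipoq*, *Lep*, *Retn*, *Pparg*, *Ucp1*, *mt-Nd1*, *mt-Nd2*, *mt-Nd4*, *mt-Cytb*, *mt-Rnr2*, *Col1a2*, *Col3a1*, *Lama2*, *Ifit2*, *Ifi27l2a*, *Trem2*, *Tnf*, *Zfp949*, *Mthfsl*) were chosen after their values were seen. A few genes that the rule names are not reported here.

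The alternatives were limma-voom with and without sample quality weights (limma 3.58.1), DESeq2 1.42.0, RLE size factors, no filter and the filter of filterByExpr, only the 12 libraries, the replicate number as a block, thinned counts, other criteria, each mouse left out, and 5 libraries set aside (chow fl/fl 3, chow AKO 5, HFD fl/fl 3, 4 and 6), which earlier work on these data took for those the study removed as outliers. The study's text does not name them. GC offsets, the fit without chow fl/fl replicates 1 and 3 and a group mean of 2 on the log2 CPM scale were added after seeing the data.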

Additional observations from a re-analysis of the deposited data

Results flagged for a closer look

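Of 170 groups of 6 libraries (85 values in each of HFD AKO and chow fl/fl), 28 held a highest or lowest library whose gap to the nearest other was too large a share of the group's range by Dixon's criterion, where chance flags about 5%. The libraries repeat. Values are log2 CPM unless stated, and no explanation was tested.

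Chow fl/fl replicate 3 was lowest of its group for *Snord89* (0.907), *Cep162* (3.38), *Pdia4* (2.64), *Fabp4* (13.6), *Larp4* (4.51), *Gtf2h1* (3.84) and *Srpr* (3.35) and highest for *Col5a1* (7.76). For *Pdia4* the other 5 chow fl/fl libraries lay between 5.06 and 5.35. In 3 of the 9 genes the study plotted, this library was thus the one apart. Chow fl/fl replicate 1 was highest for *Scd1* (13.6) and lowest for *Mmp12* (5.84), *Atf3* (3.92), *Lyz2* (9.52), *Pcna* (3.90) and *Ccl9* (6.76), a pattern of low macrophage and proliferation genes beside high lipogenic mRNA. Chow fl/fl replicate 4 was highest for *Sec63* (7.07).

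HFD AKO replicate 6 stood apart from the other 5 on the first principal component (0.850 against 47.2 to 61.5). It was highest for *Snord89* (3.55), *Pex3* (4.80), *Fabp4* (14.1), *Hmgcs1* (8.42), *Lama4* (6.53) and *Sparc* (12.5) and lowest for *Mbp* (5.86) and *Pcna* (5.68). HFD AKO replicate 2 was highest for *mt-Ti* (3.66) and *Grcc10* (6.83) and lowest for *Btbd10* (3.67). HFD AKO replicate 5 had the lowest total of its group, 9156492 counts.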

How the results depend on the processing

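The count of called genes, 315 on all 24 libraries with edgeR, moved with the tool and the mice. It was 199 with limma-voom (43.2% of them higher, against 23.8%), 2436 with limma-voom and sample quality weights (42.9% higher), 643 with DESeq2, 590 with only the 12 libraries (39.5% higher), 1487 without 5 libraries (32.1% higher) and 589 without chow fl/fl libraries 1 and 3. With a threshold of 0.05 on the adjusted *p*-value it was 550, or 701 with no fold change or CPM criterion, and with a fold change of at least 2 it was 184. Leaving out 1 mouse gave 159 to 748. RLE size factors, no filter, filterByExpr, thinned counts, GC offsets, no fold change criterion and the log2 CPM scale gave 287 to 362. Of the 315 calls, 175 were among those of limma-voom and 294 among those made without 5 libraries, and all 315 kept their direction in each refit. The count within 1.5-fold was 521 for a narrower margin (a ratio of 5 to 4) and 8708 for 2-fold and otherwise 3261 to 5263. The difference of 62.2 on the first component was 29.7 to 76.9 in its alternatives (exact permutation *p*-values 0.00433 to 0.0216). *Lama4* was called with sample quality weights (-0.94) and without 5 libraries (-1.10), and its leave-one-out values were -1.19 to -0.62. For single named genes, 147 values across the alternatives lost a call and 5 gained one. No value reversed a called direction. Same-numbered mice were not paired: their deviations correlated at -0.145 to 0.203, and 0 of 6 numbers matched best. With the replicate block 223 genes were called, 214 of them among the 315. Depth limits genes under 2 CPM: in HFD AKO a count of 3 is 0.258 to 0.328 CPM.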

Other observations

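Outside the fixed lists, 4 further called genes known from mast cells or from their steroid and serotonin metabolism were chosen after their values were seen. Each was higher in every HFD AKO library than in any chow fl/fl library, against 2.24% of all genes. Of called genes in either direction, 37.8% were without overlap, so these 4 are a selection and no separate evidence. *Tph1*, which makes serotonin from tryptophan, had means of 16.2 CPM in HFD AKO and 1.63 CPM in chow fl/fl (log2 fold change 3.29, SE 0.79, adjusted *p*-value = 0.0317, edgeR). *Mrgprb2*, a receptor of connective tissue mast cells for basic secretagogues, had 7.53 and 1.09 CPM (2.76, adjusted *p*-value = 0.0301). *Cyp11a1*, which starts steroid synthesis, had 7.43 and 1.11 CPM (2.72, adjusted *p*-value = 0.0333), and *Cd200r3*, a receptor of mast cells and basophils, 4.78 and 1.54 CPM (1.62, adjusted *p*-value = 0.0317). For HFD against chow in fl/fl mice, which share the chow fl/fl libraries, the log2 fold changes were 2.43 for *Tph1*, 1.54 for *Mrgprb2*, 1.87 for *Cyp11a1* and 0.69 for *Cd200r3*, and none was called.

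Further called genes outside the lists were also chosen after their values were seen, and no group of genes was tested. *Cd248*, endosialin of fibroblasts and pericytes, had means of 91.3 and 47.6 CPM (0.94, adjusted *p*-value = 0.0219). *Mrc2*, which takes up collagen, had 63.4 and 35.6 CPM (0.83, adjusted *p*-value = 0.0283), and *Antxr1*, a collagen VI receptor, 37.8 and 20.7 CPM (0.87, adjusted *p*-value = 0.0317). *Bmp1*, which cleaves procollagen, had 53.2 and 32.2 CPM (0.72, adjusted *p*-value = 0.0317). Among genes that fell were *Enpp2*, which codes for autotaxin, with 104 and 253 CPM (-1.28, adjusted *p*-value = 0.0219), *Sult1e1*, the estrogen sulfotransferase, with 8.37 and 27.8 CPM (-1.73, adjusted *p*-value = 0.0292), and *Adig*, adipogenin, with 34.3 and 101 CPM (-1.56, adjusted *p*-value = 0.0371).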
